A study of Mus musculus with 36 samples.

Results

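Blood of the inbred mouse strain DBA/2J was compared with blood of 5 other inbred strains on expression arrays. The members are the 3 arrays of globin-reduced DBA/2J RNA, chosen by their strain and preparation labels, of 36 arrays in the series. They were set against the 15 globin-reduced arrays of 129S1/ImJ, A/J, C3H/HeJ, C57Bl/6J and FVB/NJ, with 3 mice in each strain. All mice were untreated males 8 weeks old that had spent 1 week in single housing, and their blood was drawn from the heart under isoflurane into EDTA and then a Trizol reagent. Part of each RNA was depleted of globin messenger RNA, alpha and beta, with the GLOBINclear Mouse/Rat kit, and these arrays are called GLOBINclear below. The other 18 arrays carry the same mice's RNA without that step, are called whole RNA, and served as a check of direction for the contrast. They also entered the choice of probe sets to test, the choice of each gene's brightest set and a test of the difference between preparations. The strain labelled 129S1/ImJ is written 129S1/SvImJ in the protocol. Each animal is a separate mouse, but mice of an inbred strain share their genotype, so each group stands for 1 genome.

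DBA/2J is one of the oldest inbred mouse strains. It carries the d haplotype of the major histocompatibility complex (MHC), lacks the natural killer receptor chain CD94 encoded by Klrd1, has no complement C5, and develops a pigment-dispersing glaucoma through alleles of Gpnmb and Tyrp1. In whole blood the red cell lineage, platelets and white cells all contribute RNA, so an array value sums over them. Among other sources, a lower value can come from fewer cells of a type or from less RNA per cell, and the arrays cannot tell these apart. Whether the probes match each strain's alleles was not examined.

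The values are log2 expression summaries per probe set, and a difference of 1 on this scale is a 2-fold difference. Each contrast is the DBA/2J mean minus the mean of the other 5 strain means, with the standard error from limma's fit over all 18 GLOBINclear arrays. A probe set was called at a Benjamini-Hochberg adjusted p under 0.05 over the 22518 probe sets tested. Tested sets passed a filter on low values: their mean over all 36 arrays, those of DBA/2J included, was above log2 2.89. The lowest correlation of an array with its own group was 0.989 on each DBA/2J array and 0.932 to 0.987 on the other arrays. The DBA/2J arrays had 4122 to 4638 probe sets at log2 5 or more, against 3802 to 5278 on the arrays of the other strains. The mean of the bright globin probe sets was 11.9 to 12.2 in DBA/2J and 11.4 to 12.6 in the other strains. The mean gap between 3′ and 5′ control probe sets, a sign of RNA quality, was 1.14 to 1.51 log2 units in DBA/2J and 0.813 to 1.47 in the others, so the highest value was on a DBA/2J array. Its part in the results was not tested.

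DBA/2J blood differed from the other strains in 443 of 22518 probe sets, or 1.97% of those tested. Of these, 262 (1.16%) were higher and 181 (0.804%) were lower, and the size was at least 2-fold for 165 of the higher and 115 of the lower ones. The median contrast over all tested probe sets was 0.02. In 217 of the 262 higher probe sets DBA/2J had the highest mean of the 6 strains, and in 129 of the 181 lower ones it had the lowest. The 3 DBA/2J arrays lay above all 15 other arrays in 83 called probe sets (0.369% of those tested) and below all of them in 54 (0.24%). Whether called or not, 99 probe sets (0.44%) had the 3 DBA/2J arrays above all others and 80 (0.355%) had them below. The same contrast drawn for the other strains gave 1385 calls (6.15%) for 129S1/ImJ, 1159 (5.15%) for C57Bl/6J, 804 (3.57%) for FVB/NJ, 710 (3.15%) for A/J and 317 (1.41%) for C3H/HeJ. Of the 6 strains only C3H/HeJ had fewer calls than DBA/2J, and the differences between these counts were not tested. Taking each gene by its brightest probe set, 219 of 11353 genes (1.93%) were called, 123 higher (1.08%) and 96 lower (0.846%). Of the called genes, 39 (0.344% of those tested) had the DBA/2J mice above all others and 26 (0.229%) below. The number of calls depended on the DBA/2J arrays: without DBA/2J replicate 3 it was 132 higher and 97 lower, without replicate 2 it was 144 higher and 76 lower, and without replicate 1 it was 194 higher and 80 lower. Of the arrays of the other strains, 1 moved a count by over 1.5 times: without 129S1/ImJ replicate 3 there were 285 lower calls.

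Mlycd, which encodes malonyl-CoA decarboxylase, an enzyme that breaks down the malonyl-CoA used in fatty acid synthesis, had the largest contrast of any gene taken by its brightest probe set. It read 8.86, 8.15 and 8.51 in the 3 DBA/2J mice, against a lowest value of 2.54, a median of 2.67 and a highest of 3.01 in the 15 mice of the other strains. The groups were far apart, and the contrast was 5.83 ± 0.11 (SE) with an adjusted p of 5.78e-14. In the other strains Mlycd averaged 2.67 in GLOBINclear RNA and 2.68 in whole RNA, both below the filter of log2 2.89. It was thus tested only because the DBA/2J arrays raised its mean over all arrays. Naa16, an auxiliary subunit of the enzyme that acetylates protein N-termini, read 8.56, 8.91 and 8.91 in DBA/2J, against 3.96, 4.19 and 4.86 as the lowest, median and highest in the other strains. Its contrast was 4.50 ± 0.18 with an adjusted p of 3.10e-10. E330020D12Rik read 6.89, 7.66 and 7.26 in DBA/2J, against 2.83, 3.57 and 4.52 as the lowest, median and highest of the others, a contrast of 3.72 ± 0.27 (adjusted p 6.54e-07). For all 3 genes DBA/2J was also called higher than each of the 5 strains taken singly. On the whole RNA arrays their contrasts were smaller, at 2.90, 2.15 and 1.92, and each was called there too.

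The largest contrast of any probe set was for Xaf1, whose product binds the apoptosis inhibitor XIAP and is induced by interferon; this set was named after its values were seen. One of its probe sets read 11.57, 10.91 and 11.20 in DBA/2J, against 3.24, 3.41 and 5.97 as the lowest, median and highest in the other strains. The contrast was 7.51 ± 0.31 (adjusted p 6.09e-10), and in whole RNA it was 5.57. The second Xaf1 probe set did not show this, with means of 6.03 in DBA/2J, 3.63 in 129S1/ImJ and 5.20 to 6.27 in the other 4 strains, and a contrast of 0.83 that was not called (adjusted p 0.230). The 2 probe sets of this gene therefore disagree.

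**Figure D1:**
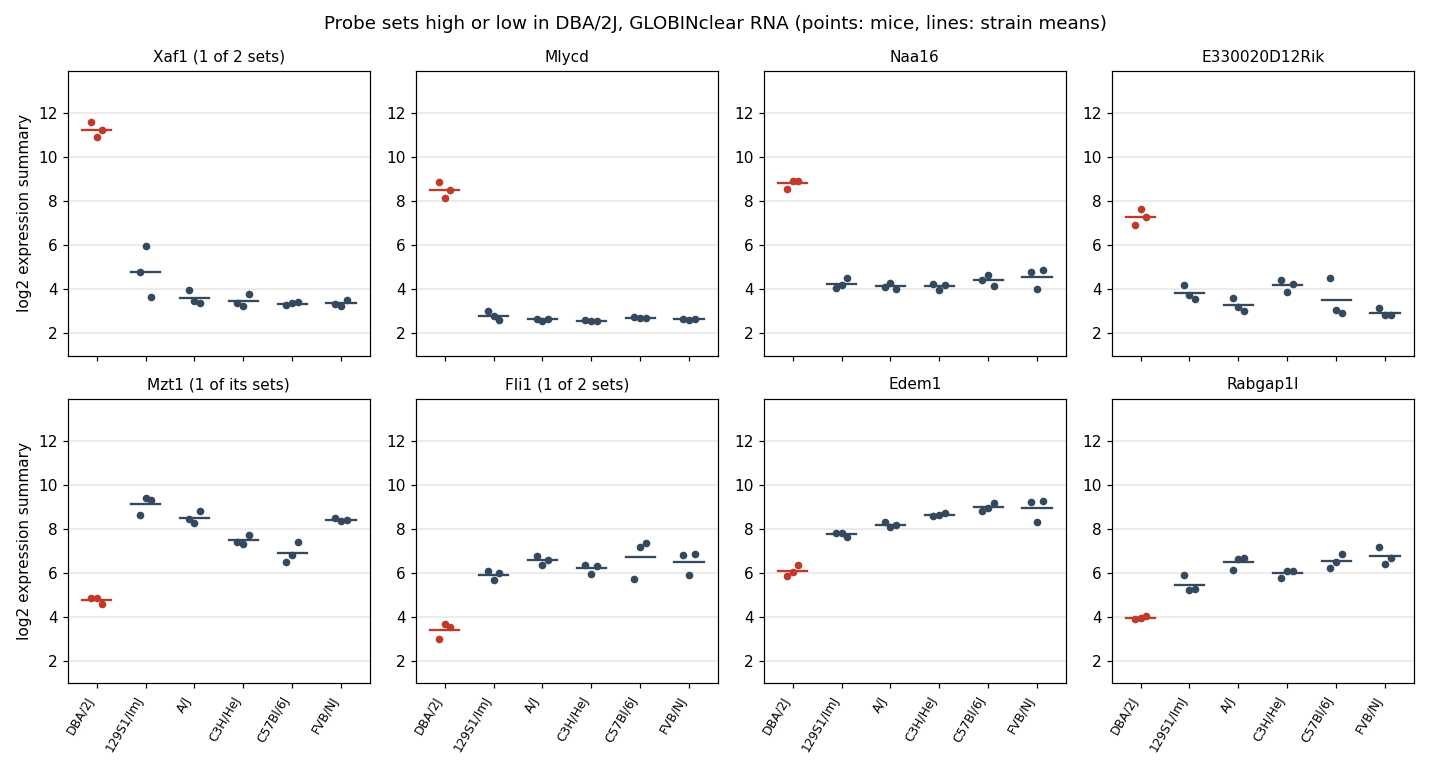
Log2 expression summary (vertical axis) of 8 probe sets in each GLOBINclear array, by strain, with DBA/2J at the left in red. Points are mice, short lines are strain means, and in each panel the 3 DBA/2J points lie outside the range of the 15 others; Xaf1, Mzt1 and Fli1 were chosen after their values were seen, and other probe sets of these genes did not pass the test.

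Other genes with DBA/2J mice above all others had smaller contrasts. Tm4sf5, a four-span membrane protein, read 5.31, 5.49 and 5.84 in DBA/2J, against 2.60 to 4.45 in the others, with FVB/NJ next at a mean of 3.91 (contrast 2.63 ± 0.22, adjusted p 2.87e-06). Mr1, an MHC class I-like molecule that presents vitamin B metabolites to T cells, read 4.20, 5.43 and 5.35 in DBA/2J, against 2.57 to 3.26 in the others (contrast 2.25 ± 0.18, adjusted p 2.69e-06). Over the other strains' arrays of both preparations, Tm4sf5 and Mr1 averaged below the filter of log2 2.89. Both were tested only because the DBA/2J arrays raised their means. Pla2g4a, the cytosolic phospholipase that releases arachidonic acid from membranes, read 6.23, 6.67 and 6.59 in DBA/2J, against 3.28 to 5.18 in the others (contrast 2.14 ± 0.26, adjusted p 0.000197). The RNA-binding protein gene Larp4b (2.19 ± 0.27), Rassf4, which encodes a Ras-association domain protein (1.98 ± 0.18), 4930556A17Rik (1.96 ± 0.23) and Ahi1, a gene of the primary cilium (1.91 ± 0.16), were also higher. A second tested Rassf4 set, dim at 3.36 in DBA/2J, had a contrast of 0.20 that was not called. DBA/2J mice of 4930556A17Rik were unequal at 5.30, 4.01 and 5.89, but all lay above the highest value of 3.24 elsewhere.

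For Srp14, Rab6a and Larp4b another strain came close. Srp14 encodes a subunit of the signal recognition particle, which directs nascent proteins to the endoplasmic reticulum. It read 11.27, 11.13 and 11.11 in DBA/2J, against 6.16, 8.35 and 11.04 as the lowest, median and highest of the others, and the A/J mean of 10.98 was next to the DBA/2J mean of 11.17. The contrast was 2.43 ± 0.29 (adjusted p 0.000145), all 4 Srp14 probe sets were called, and DBA/2J was called against 4 of the 5 strains singly. Rab6a, a Golgi trafficking GTPase, averaged 10.29 ± 0.05 (SD, n = 3) in DBA/2J, against strain means of 6.92 to 9.92, the highest in C3H/HeJ (contrast 1.80 ± 0.19, adjusted p 5.33e-05). Its 3 probe sets were all called.

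Some genes were high in DBA/2J together with 1 other strain. Sult4a1, a member of the cytosolic sulfotransferase family, read 7.51, 7.29 and 7.70 in DBA/2J. The 129S1/ImJ mean was 7.24, and the other 4 strain means were 2.95 to 3.00. The contrast of 3.68 ± 0.31 (adjusted p 3.52e-06) thus averages over 1 strain at the DBA/2J level and 4 far below it. Rubcn, which encodes Rubicon, a negative regulator of autophagy, averaged 6.17 ± 0.32 (SD, n = 3) in DBA/2J and 5.71 in C3H/HeJ, against 2.87 to 3.14 in the other 4 strains (contrast 2.66 ± 0.17). Pdxdc1, which encodes a protein with a pyridoxal-dependent decarboxylase domain, averaged 4.60 ± 0.17 (SD, n = 3) in DBA/2J and 4.36 in C3H/HeJ, against 2.81 to 2.88 in the rest (contrast 1.45 ± 0.11). A second tested Pdxdc1 set, dim at 2.90 in DBA/2J, had a contrast of 0.03 that was not called. Cd59a, a membrane inhibitor of the complement attack complex, averaged 9.34 ± 0.29 (SD, n = 3) in DBA/2J, against 9.91 in A/J, 4.84 in 129S1/ImJ and 6.60 to 7.90 in the other 3 strains (contrast 2.02 ± 0.30, adjusted p 0.00113). The contrast was higher than 0 for all 4 genes, but DBA/2J was not called against the strain that shared its level.

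Several genes had all DBA/2J mice below the 15 others. Edem1 takes part in the degradation of misfolded glycoproteins of the endoplasmic reticulum. It read 5.85, 6.04 and 6.38 in DBA/2J, against 7.64, 8.59 and 9.25 as the lowest, median and highest of the others, so that no values overlapped. The contrast was -2.41 ± 0.19 (adjusted p 1.96e-06), and its second probe set fell by 1.90 on the log2 scale. Rabgap1l, a GTPase-activating protein for Rab proteins, read 3.92, 3.97 and 4.04 in DBA/2J, against 5.24 to 7.17 in the others (contrast -2.27 ± 0.20, adjusted p 5.20e-06). A second Rabgap1l set was also lower (-1.51, adjusted p 0.00497), while 2 others had contrasts of 0.67 and 0.25 that did not pass.

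Probe sets of Mzt1 and Fli1 were named after their values were seen. One probe set of Mzt1, a small protein of gamma-tubulin complexes, read 4.86, 4.88 and 4.62 in DBA/2J, against 6.51, 8.34 and 9.40 as the lowest, median and highest of the others (contrast -3.30 ± 0.21, adjusted p 1.51e-07). The other 2 tested Mzt1 sets had contrasts of -1.03 (adjusted p 0.0508) and -0.51 (adjusted p 0.514), neither called. One probe set of Fli1, an ETS transcription factor of platelet precursors, read 3.01, 3.69 and 3.55 in DBA/2J, against 5.69 to 7.35 in the others (contrast -2.98 ± 0.29, adjusted p 1.82e-05). The second Fli1 set was 7.38 in DBA/2J, against strain means of 6.29 to 7.24, and its contrast of 0.63 was not called (adjusted p 0.485). Each gene was thus called low on 1 probe set. The Mzt1 set at -1.03 also had its lowest strain mean in DBA/2J (4.71, against 5.03 to 6.86), whereas the second Fli1 set had its highest there.

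Phgdh, the first enzyme of serine synthesis, read 2.88, 2.90 and 2.87 in DBA/2J, against 4.46, 5.10 and 7.42 as the lowest, median and highest of the others (contrast -2.45 ± 0.43, adjusted p 0.00551). Its other 2 tested probe sets had contrasts of -0.58 and 0.03 that did not pass. Parp1, a DNA repair polymerase of poly(ADP-ribose), read 3.95, 3.98 and 4.20 on its brightest set in DBA/2J, against 4.83 to 7.11 in the others (contrast -1.77 ± 0.16, adjusted p 7.59e-06). Its other 3 sets had contrasts of 0.14 to 0.62 and were not called. Snhg1, a long non-coding host of small nucleolar RNAs, had a contrast of -1.33 ± 0.20 on its brightest set (adjusted p 0.00123), and its 4 other sets had contrasts of -0.16 to 0.81 that did not pass. On 2 of those sets, at 0.81 and 0.61, the DBA/2J mice lay above all others. These 3 genes are called low on 1 probe set only. With each gene taken as the mean of its probe sets, none of the 3 was called.

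Other genes with all DBA/2J mice below the 15 others were Gm32031 (-1.79 ± 0.26), the formin gene Diaph3 (-1.77 ± 0.23), Pgap4, which modifies glycosylphosphatidylinositol anchors (-1.67 ± 0.20), and Rfk, the riboflavin kinase (-1.55 ± 0.16). Rfk read 10.57, 10.27 and 10.51 in DBA/2J, against 10.94 to 12.72 in the others. The other Rfk sets had smaller contrasts of -0.61 (adjusted p 0.0699, not called) and -0.58 (adjusted p 0.00993, called). Diaph3 read 6.47, 6.29 and 6.71 in DBA/2J, against 6.95 to 10.93 in the others. Diaph3 was high in 129S1/ImJ (10.34) and C57Bl/6J (9.50) and 7.04 to 7.23 in the other 3 strains, so most of its contrast came from 2 strains. The RNA-binding gene Raly (-1.34, adjusted p 0.0287), Rab5if (-1.30, adjusted p 0.00551), the vesicle tethering subunit Trappc6a (-1.29, adjusted p 0.00551), Ndrg3 (-1.22, adjusted p 0.0107) and Naa38 (-1.22, adjusted p 0.0315), a subunit of an N-terminal acetyltransferase, lost the call when single arrays were left out. Second tested sets of Raly and Rab5if, dim at 2.99 and 3.29 in DBA/2J, had contrasts of 0.10 and 0.01 that were not called. Without DBA/2J replicate 1 the adjusted p was 0.0523 for Raly, 0.0581 for Rab5if, 0.0649 for Trappc6a, 0.0907 for Ndrg3 and 0.140 for Naa38. Naa38 also lost the call without A/J replicate 1 (adjusted p 0.0515), A/J replicate 3 (0.0542), C57Bl/6J replicate 2 (0.0526) or C3H/HeJ replicate 3 (0.0537). Without DBA/2J replicate 2 the adjusted p was 0.245 for Raly, 0.0577 for Ndrg3 and 0.285 for Naa38, and without replicate 3 it was 0.167 for Raly, 0.0530 for Rab5if, 0.0614 for Ndrg3 and 0.0711 for Naa38.

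Among 34 tested genes of a list of strain alleles, 5 were called, 3 higher and 2 lower, where 1.93% of all tested genes were called, and their median contrast was 0.02, as over all genes. The list was drawn up with earlier results of these data known and includes Mlycd and Gdpd3. Its share of calls is therefore not independent of these data. Another 9 members were measured too dimly to be tested, Gpnmb and Tyrp1 among them. Of the 29 not called, 24 had contrasts within 0.5 on the log2 scale. Some of these were close to the filter of log2 2.89 in all 6 strains, with strain means of 2.88 to 2.95 for Hc, 2.92 to 3.02 for Gabra2 and 3.01 to 3.05 for Kcnj9. At such levels a small contrast does not show that the strains are alike. The 3 higher were Mlycd, H2-Ea and Cox7a2l, and the 2 lower were Gdpd3 and Mndal. Cox7a2l, a factor in the assembly of respiratory chain supercomplexes of which C57BL/6J carries a short allele, read 10.44, 10.68 and 10.63 in DBA/2J, against 8.14, 8.82 and 9.35 as the lowest, median and highest of the others. Its contrast was 1.74 ± 0.13 (adjusted p 1.18e-06), its other 2 sets had contrasts of 1.81 and 1.91, and the DBA/2J mice were above all others on all 3 sets. C57Bl/6J, with a mean of 8.78, did not stand apart from the other strains, which ranged from 8.30 in FVB/NJ to 9.29 in A/J.

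Gdpd3, a lysophospholipase D, read 2.13, 2.12 and 2.21 in DBA/2J. It was 13.40 in 129S1/ImJ and 12.87 in FVB/NJ, and 2.11 to 2.16 in A/J, C3H/HeJ and C57Bl/6J. Its contrast of -4.38 ± 0.11 (adjusted p 1.96e-12) thus came from 2 high strains, and DBA/2J sat with the 3 others. Mndal, an interferon-inducible DNA-binding protein of the Ifi200 family, read 3.15, 3.22 and 3.24 in DBA/2J and averaged 3.16 in both A/J and FVB/NJ. The averages were 7.50, 6.91 and 7.30 in 129S1/ImJ, C3H/HeJ and C57Bl/6J (contrast -2.40 ± 0.36, adjusted p 0.00131). Klrd1, whose product CD94 DBA/2J lacks, read 2.54, 2.55 and 2.53 in DBA/2J, against 3.24, 4.19 and 5.61 as the lowest, median and highest in the other strains. No values overlapped, but the contrast of -1.62 ± 0.40 missed the threshold (adjusted p 0.0516).

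**Figure D2:**
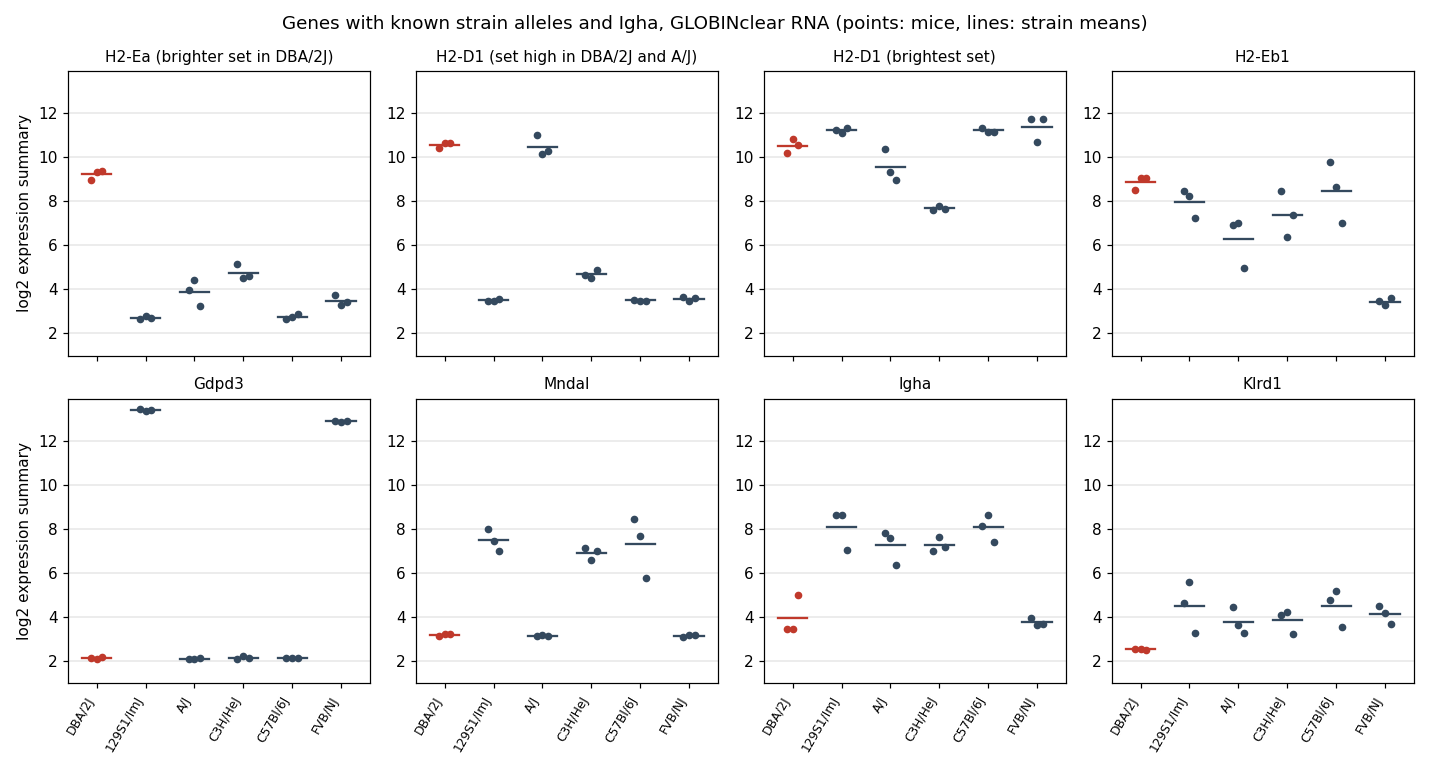
Log2 expression summary (vertical axis) of 8 probe sets in each GLOBINclear array, by strain, with DBA/2J at the left in red; points are mice and short lines are strain means. The H2-Ea set is high in DBA/2J alone, 1 H2-D1 set is high in DBA/2J and A/J, Gdpd3 is high in 129S1/ImJ and FVB/NJ, and Mndal and Igha are low in DBA/2J and in 1 or 2 other strains.

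MHC class II molecules present peptides to CD4 T cells and are carried in blood mainly by B cells. H2-Ea, the E alpha chain, was the member that stood out. Its brightest set over all arrays read 6.36, 6.64 and 6.23 in DBA/2J, against 2.87, 3.48 and 4.89 as the lowest, median and highest of the others (contrast 2.82 ± 0.20, adjusted p 6.11e-07). A second H2-Ea set read 8.93, 9.32 and 9.35 in DBA/2J, against strain means of 4.75 in C3H/HeJ, 3.87 in A/J, 3.48 in FVB/NJ, 2.75 in C57Bl/6J and 2.71 in 129S1/ImJ (contrast 5.69 ± 0.19, adjusted p 5.17e-11). The DBA/2J mice were above all others on both sets, and the third H2-Ea set showed no such difference (contrast 0.04, not called). The b and q haplotypes, carried by C57Bl/6J and 129S1/ImJ and by FVB/NJ, are known for making no surface H2-E. C3H/HeJ and A/J carry a k-type E alpha chain, and their means lay between those of DBA/2J and of the b and q strains on both sets, with A/J mice overlapping FVB/NJ on both.

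Of 14 tested MHC class II genes, 2 were called higher and 0 lower, where 1.08% of all tested genes were called higher, 12 had positive contrasts, and the median contrast was 1.03, against 0.02 over all genes. DBA/2J had the highest mean of the 6 strains in 11 of the 14. H2-Eb1, the E beta chain, read 8.49, 9.03 and 9.02 in DBA/2J, against 3.27, 7.02 and 9.75 as the lowest, median and highest of the others (contrast 2.14 ± 0.52, adjusted p 0.0494). Its values overlapped those of C57Bl/6J (mean 8.47), and FVB/NJ was far below at a mean of 3.44. The call for H2-Eb1 stood close to the threshold and was lost when any of 13 of the 18 arrays was left out. The adjusted p was then 0.126 without DBA/2J replicate 1, 0.263 without replicate 2 and 0.227 without replicate 3, and at most 0.0737 without any other array. H2-Aa (1.67, adjusted p 0.154), H2-Ab1 (1.49, adjusted p 0.149), H2-DMb2 (1.96, adjusted p 0.0646), H2-Ob (1.43, adjusted p 0.0924) and the invariant chain Cd74 (1.23, adjusted p 0.291) had positive contrasts that did not pass on their brightest sets. Rfxank, a subunit of the factor that binds class II promoters, had a contrast of -0.58 that did not pass either (adjusted p 0.546).

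A dimmer H2-Ab1 set, chosen after its values were seen, read 6.25, 7.75 and 7.0 in DBA/2J, against 3.17 to 6.34 in the others, and was called (contrast 1.97 ± 0.40, adjusted p 0.0140). The call was lost without DBA/2J replicate 2 (adjusted p 0.178) or replicate 3 (0.0885), and a further H2-Ab1 set had a contrast of 1.05 that did not pass (adjusted p 0.526).

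The promoters of H2-Aa (not called) and H2-Eb1 (called) are shown because class II genes share promoter boxes. They are RefSeq sequence from build GRCm38.p6, that is C57BL/6J reference sequence and not DBA/2J, in windows of 300 bases that span the annotated start, at chr17:34287774-34288073 on the minus strand for H2-Aa and chr17:34305617-34305916 on the plus strand for H2-Eb1. Capitals mark the letters of the Y box, CTGATTGG, which contain an inverted CCAAT box.
H2-Aa: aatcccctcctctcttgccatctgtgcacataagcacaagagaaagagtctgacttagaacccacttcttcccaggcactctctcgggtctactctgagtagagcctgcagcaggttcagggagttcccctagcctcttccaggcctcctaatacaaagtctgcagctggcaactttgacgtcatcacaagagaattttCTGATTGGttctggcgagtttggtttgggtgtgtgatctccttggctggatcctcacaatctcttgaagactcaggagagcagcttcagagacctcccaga
H2-Eb1: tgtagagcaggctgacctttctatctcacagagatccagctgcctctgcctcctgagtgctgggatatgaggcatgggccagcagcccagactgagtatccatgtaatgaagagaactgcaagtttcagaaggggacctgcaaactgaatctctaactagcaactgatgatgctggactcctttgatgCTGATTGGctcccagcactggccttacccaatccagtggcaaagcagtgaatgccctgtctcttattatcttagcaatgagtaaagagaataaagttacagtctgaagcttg
The box starts 51 bases before the annotated start in H2-Aa and 62 bases before it in H2-Eb1. Read on either strand, these letters occur in 3 of the 9 tested class II genes with a promoter in the table, H2-Oa besides these 2, and in 4.1% of all 32851 promoters of the same length. The class II share counts genes by any of their promoters, and the other share counts single promoters, so their units differ. The match describes the reference letters only.

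The MHC class I gene H2-D1 is measured by 9 probe sets that fell into different strain patterns, and 3 of them, named after their values were seen, were high in DBA/2J and A/J. On the first of these the DBA/2J mice read 10.41, 10.61 and 10.63, and the strain means were 10.47 in A/J, 4.68 in C3H/HeJ and 3.49 to 3.57 in 129S1/ImJ, C57Bl/6J and FVB/NJ. Its contrast was 5.41 ± 0.16 (adjusted p 1.40e-11), and those of the 2 similar sets were 5.35 ± 0.18 and 4.83 ± 0.22. A/J carries the d allele at H2-D as DBA/2J does. The brightest H2-D1 set was 10.50 in DBA/2J, against 9.53 in A/J, 7.68 in C3H/HeJ and 11.20 to 11.37 in the other 3 strains, and its contrast of 0.30 was not called (adjusted p 0.964). A further set was high in C3H/HeJ alone, at 9.50, and read 4.58 in DBA/2J (contrast -1.03, adjusted p 0.00303). Class I genes are near copies of each other, and the sets do not give a single H2-D1 level. Among 25 tested class I and peptide loading genes, taken by their brightest set, Mr1 was the only one called, and the median contrast was 0.17. Mr1 passed the filter on low values only through the DBA/2J arrays.

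B cell markers had mostly positive contrasts in DBA/2J. Of 23 tested, 6 were called higher and 0 lower, where 1.08% of all tested genes were called higher, 21 had positive contrasts, and the median contrast was 0.98. DBA/2J had the highest mean of the 6 strains in 17 of the 23. Cr2, the complement receptor CD21, read 4.45, 4.74 and 4.59 in DBA/2J, against 2.92, 3.19 and 3.91 as the lowest, median and highest of the others (contrast 1.26 ± 0.16, adjusted p 0.000323). Fcer2a, the low-affinity IgE receptor CD23, read 5.31, 6.67 and 5.66 in DBA/2J, against 3.40, 4.46 and 5.22 (contrast 1.55 ± 0.31, adjusted p 0.0132). Bcl11a, a transcription factor of early B cells, read 4.54, 4.71 and 5.05 in DBA/2J, against 3.33, 3.51 and 4.43 (contrast 1.09 ± 0.20, adjusted p 0.00633). For these 3 genes the DBA/2J mice were above all others. Cd22, an inhibitory receptor (1.76 ± 0.42, adjusted p 0.0433), Fcmr, the IgM Fc receptor (1.48 ± 0.36, adjusted p 0.0433), and Ebf1, a lineage-determining factor (0.73 ± 0.17, adjusted p 0.0389), were called with values that overlapped other strains. The B cell surface genes Ms4a1 (1.80, adjusted p 0.0952) and Cd79b (1.44, adjusted p 0.231) did not pass.

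**Figure D3:**
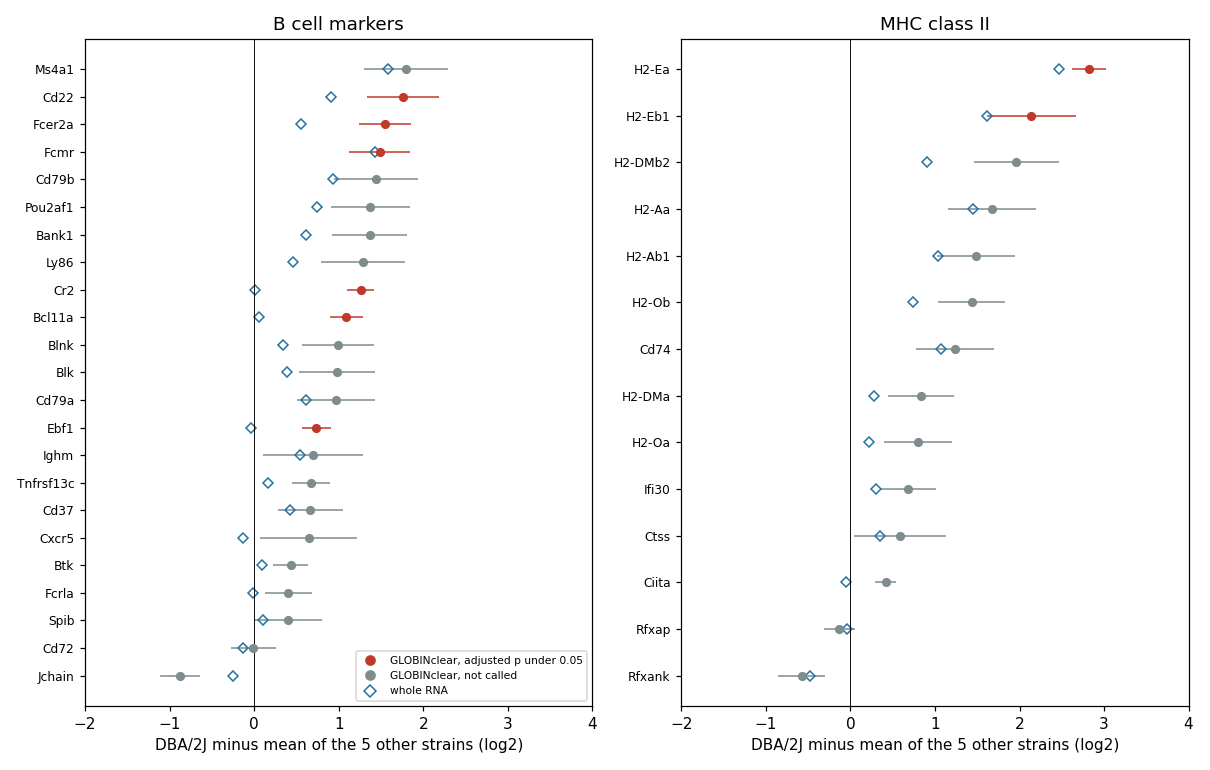
Contrast of each tested B cell marker (left) and MHC class II gene (right), DBA/2J minus the mean of the other 5 strain means, in log2 units. Filled circles with bars are GLOBINclear contrasts with their standard error, red where the adjusted p was under 0.05, and open diamonds are whole RNA contrasts; 21 of 23 B cell and 12 of 14 class II contrasts are above 0 in GLOBINclear RNA.

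The B cell calls rested on few arrays. The number of called B cell markers was 1 without DBA/2J replicate 3, 2 without replicate 2 and 3 without replicate 1. It was 3 without 129S1/ImJ replicate 2, A/J replicate 2 or 3, C3H/HeJ replicate 2 or 3, or FVB/NJ replicate 3. Cr2 kept its call in each of the 18 fits that left out 1 array. In whole RNA 0 of the 23 were called at an adjusted p under 0.05, and the median contrast was 0.39. The summed level of the list, as its mean per array, was 5.52 to 5.93 in DBA/2J and 3.87 to 6.02 in the other strains, so single mice of other strains reached the DBA/2J level. Against this, T cell markers had 0 of 27 called and a median contrast of 0.02, neutrophil markers 0 of 23 and -0.02, and NK and cytotoxic cell markers 0 of 18 and -0.19. Jchain, which joins secreted IgM and IgA in plasma cells, had a contrast of -0.88 that did not pass (adjusted p 0.0855). Igha, the IgA heavy chain, was chosen after its values were seen. One of its sets read 3.49, 3.45 and 5.0 in DBA/2J and averaged 3.76 in FVB/NJ, against 7.25 to 8.09 in the other 4 strains (contrast -2.91 ± 0.40, adjusted p 0.000585). The 2 other Igha sets were also called lower, with contrasts of -2.33 and -1.67.

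Platelet and megakaryocyte markers gave 3 higher and 1 lower of 35 tested, where 1.08% of all tested genes were higher and 0.846% lower, with a median contrast of 0.24. F2rl2, the thrombin receptor PAR3 of mouse platelets, averaged 6.60 ± 0.24 (SD, n = 3) in DBA/2J. The FVB/NJ mean was 7.15, those of C3H/HeJ and C57Bl/6J were 5.84 and 5.82, and those of 129S1/ImJ and A/J were 2.84 and 2.95 (contrast 1.68 ± 0.15, adjusted p 8.32e-06). A second F2rl2 set, dim at 2.88 in DBA/2J, had a contrast of -0.04 that was not called. The vascular growth factor Angpt1 (1.76 ± 0.32, adjusted p 0.00619) and the platelet tubulin Tubb1 (0.56 ± 0.13, adjusted p 0.0360) were higher as well, and Angpt1 averaged 8.28 in DBA/2J and 8.47 in FVB/NJ. Selp, the adhesion receptor P-selectin, read 4.21, 3.22 and 3.71 in DBA/2J, against 3.69, 5.82 and 7.41 as the lowest, median and highest of the others (contrast -1.93 ± 0.35, adjusted p 0.00630). A second Selp set had a contrast of -0.30 that did not pass. Leaving out DBA/2J replicate 2 took Selp to an adjusted p of 0.0857 and Angpt1 to 0.0636, and Angpt1 was at 0.0588 without replicate 3.

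Red cell genes gave 1 higher and 5 lower calls over 3 lists, where 1.08% of all tested genes were higher and 0.846% lower. Of 31 membrane and skeleton genes, Cd59a was higher and the adhesion receptor Cd44 lower (8.96 in DBA/2J, against 9.83 to 10.53 as strain means; contrast -1.18 ± 0.26, adjusted p 0.0271), and the median was -0.01. The other 3 Cd44 sets were not called. Of 38 glycolysis and redox genes, 2 were lower. Gclm, the regulatory subunit of the enzyme that starts glutathione synthesis, read 10.68, 10.52 and 10.54 in DBA/2J, against 11.11, 11.73 and 12.48 as the lowest, median and highest of the others (contrast -1.22 ± 0.21, adjusted p 0.00429). No values overlapped, but its second set had a contrast of -0.08 that did not pass. Gpx1, the main glutathione peroxidase of red cells, averaged 13.59 ± 0.04 in DBA/2J (SD, n = 3), against strain means of 13.67 to 13.91 (contrast -0.20 ± 0.05, adjusted p 0.0494). Of 34 reticulocyte maturation genes, the ubiquitin ligase genes Fbxo30 (-1.08 ± 0.23, adjusted p 0.0199) and Siah1a (-0.85 ± 0.19, adjusted p 0.0300) were lower, and the median was -0.05. The other tested Fbxo30 sets had contrasts of -0.47 and -0.52 that were not called. A second Siah1a set was called lower (-0.76, adjusted p 0.0323), and a further one was not called (-0.19). None of 20 heme synthesis genes, 16 iron genes, 2 adult globin genes or 3 embryonic globin genes was called by limma. One probe set shared by Hba-a1 and Hba-a2 was chosen after its values were seen. It averaged 12.65 in DBA/2J, against 14.61 in C3H/HeJ, 14.48 in FVB/NJ and 12.47 to 12.80 in the other 3 strains (contrast -0.73, adjusted p 0.000427). Thus 2 strains carried that difference. Further bright sets shared by these genes had contrasts of 0.16 (adjusted p 0.667) and -0.00045 (adjusted p 0.998). The set shared by the beta globin genes had a contrast of -0.04 (adjusted p 0.964). None of these further sets was called.

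The calls in Cd44, Gpx1, Fbxo30 and Siah1a did not hold when DBA/2J arrays were left out. Without DBA/2J replicate 2 the adjusted p was 0.157 for Cd44, 0.321 for Gpx1, 0.249 for Fbxo30 and 0.326 for Siah1a, and without replicate 3 it was 0.0909, 0.128, 0.0735 and 0.130 for these genes in the same order. Without replicate 1 it was 0.172 for Cd44 and 0.186 for Gpx1. Gpx1 also lost its call without any of 11 arrays of other strains, with an adjusted p of at most 0.0814, and Siah1a lost it without C3H/HeJ replicate 3 (0.0522). Gclm and Cd59a kept their calls in each such fit.

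The remaining lists had 0 to 2 calls each, where 1.93% of all tested genes were called. Of 33 mitochondrial complex I genes 1 was lower, Ndufb9, which read 8.78, 8.62 and 9.0 in DBA/2J, against 9.08, 9.99 and 10.57 as the lowest, median and highest of the others (contrast -1.12 ± 0.18, adjusted p 0.00272). The median of that list was -0.31 and 9 of its 33 contrasts were positive. Of 45 cytosolic ribosomal protein genes Rps14 was called, by 0.25 ± 0.05 (adjusted p 0.0101), and the median was 0.19. Of 59 interferon-stimulated genes Slfn4 was higher (5.91 in DBA/2J, 6.10 in C3H/HeJ and 2.84 to 4.74 elsewhere; contrast 1.78 ± 0.37, adjusted p 0.0165) and Mndal lower, with a list median of 0.04. Of 33 monocyte and macrophage markers Lst1 (0.97 ± 0.22, adjusted p 0.0311) and the coagulation factor F13a1 (0.78 ± 0.17, adjusted p 0.0254) were higher, and the median was 0.05. Of 12 glutathione transferase genes Gsta2 was lower. It was 3.24 in DBA/2J, 7.90 in C57Bl/6J, 5.54 in 129S1/ImJ and 3.11 to 3.28 in the other 3 strains (contrast -1.35 ± 0.27, adjusted p 0.0138).

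Rps14, Slfn4, Lst1, F13a1 and Gsta2 lost their calls without DBA/2J replicate 2, at adjusted p of 0.110, 0.137, 0.247, 0.236 and 0.0858 in that order. Without replicate 1 the values were 0.0648, 0.0529, 0.0505, 0.0505 and 0.0748, and without replicate 3 they were 0.0508, 0.114, 0.201, 0.145 and 0.10, in the same order. Lst1 also lost its call without A/J replicate 1 (0.0505), C57Bl/6J replicate 2 (0.0508) or C3H/HeJ replicate 3 (0.0537). Ndufb9 kept its call in each fit. By limma, none of the 20 NK gene complex receptors, 9 interferon-inducible GTPases, 38 proteasome subunits, 40 immediate early and stress genes or 12 eosinophil, basophil and mast cell markers was called, and their medians lay between -0.10 and 0.04. Over all probe sets 2159 had an unadjusted p under 0.05.

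**Figure D4:**
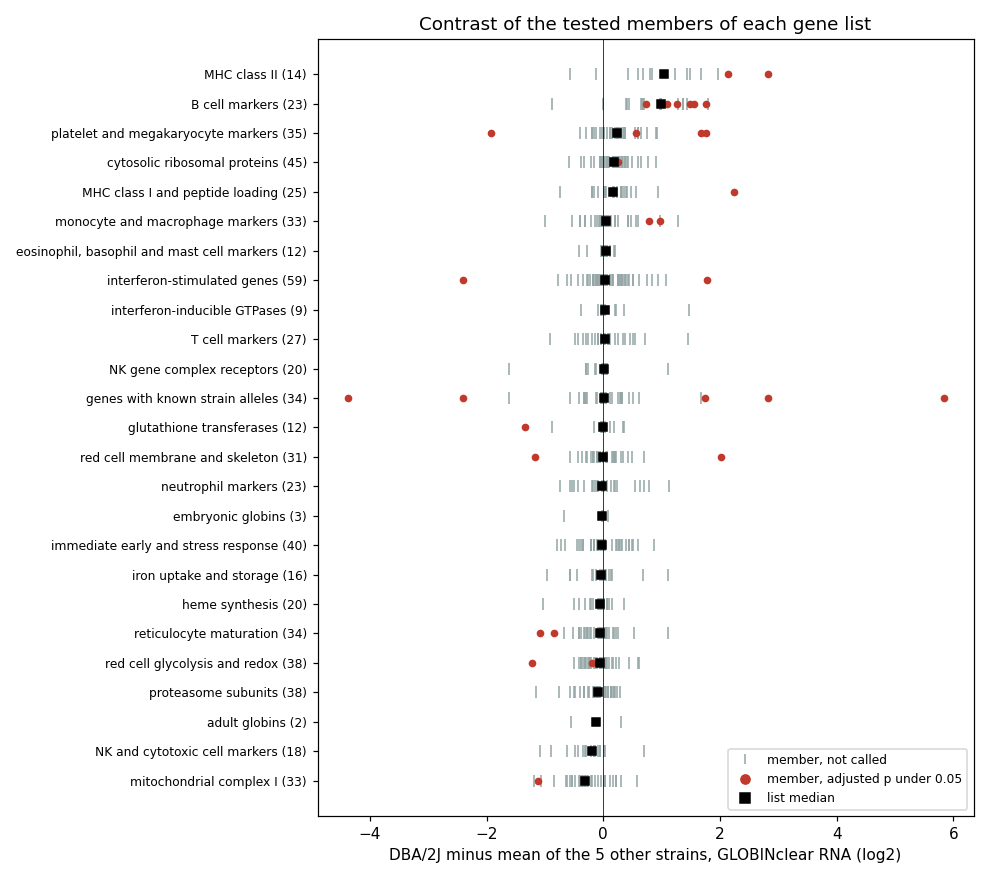
Contrast of the tested members of each of 25 gene lists in GLOBINclear RNA, DBA/2J minus the mean of the other 5 strain means (horizontal axis, log2), with the number tested in parentheses. Grey ticks are members not called, red points are called members and black squares are list medians; the MHC class II and B cell medians, 1.03 and 0.98, are the furthest from 0.

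Whole RNA from the same mice gave the same direction for most calls. Of the 443 probe sets called in GLOBINclear RNA, 406 (91.6%) had the same sign of contrast in whole RNA, against 48.3% of those not called, and 122 were also called there. Of the 37 with the opposite sign, 0 were called in whole RNA. The whole RNA arrays come from the same RNA extracts, so they are no independent replicate. Over all probe sets, whole RNA gave 77 higher (0.342%) and 128 lower (0.568%) calls. The difference between preparations was itself tested on each mouse's GLOBINclear minus whole value and was called for 152 probe sets (0.675%), 111 with a higher and 41 with a lower contrast in GLOBINclear RNA. By brightest probe set it was called for 69 genes (0.608%). In 125 of the 152 the contrast was larger in size in GLOBINclear RNA, and 114 of the 152 were also called in GLOBINclear RNA. Cbln3, a gene of the secreted cerebellin family, illustrates this: it read 4.43, 4.50 and 4.61 in DBA/2J, against 2.65 to 2.86 in the other strains, with a contrast of 1.74 ± 0.05 in GLOBINclear RNA and 0.39 in whole RNA (adjusted p of the difference 0.000118). Over the other strains' arrays of both preparations Cbln3 averaged below the filter on low values, so it was tested only through the DBA/2J arrays.

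**Figure D5:**
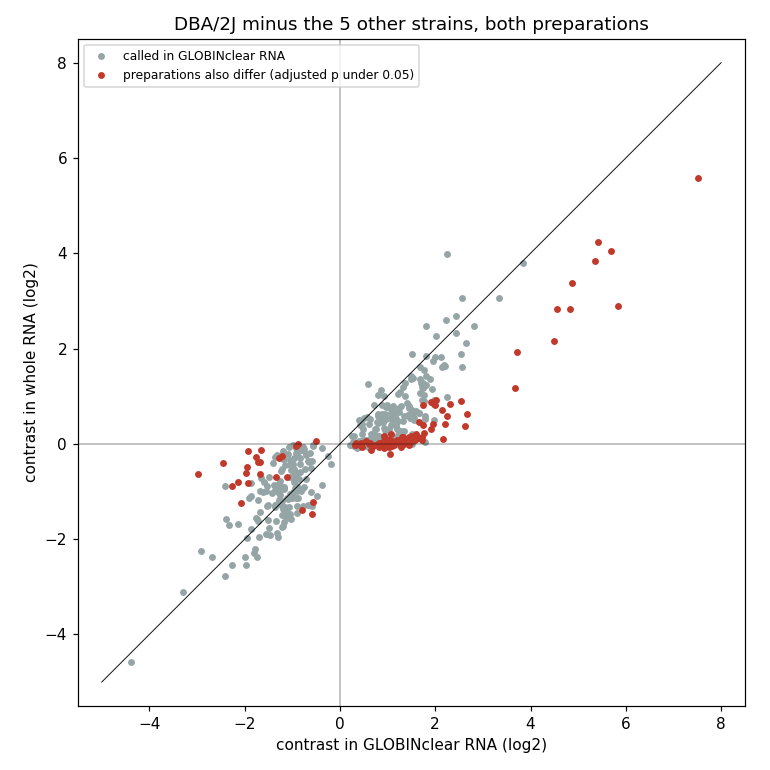
Contrast of each of the 443 called probe sets, DBA/2J minus the mean of the other 5 strain means, in GLOBINclear RNA (horizontal axis, log2) and in whole RNA (vertical axis, log2). The line marks equal contrasts, red points are those whose contrast differed between preparations at an adjusted p under 0.05, and 406 of the 443 points have the same sign on both axes.

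Called genes were also placed in the order of protein-coding genes along the chromosomes, with the assembly used only for neighbourhood. Of 290 called genes that could be placed, 81 (27.9%) lay within 10 protein-coding genes of another called gene, in 35 runs. Of 10356 tested genes that were not called, 2633 (25.4%) lay that near a called gene, a share close to it. The runs described here were chosen after their values were seen. Mzt1 and Diaph3, both lower, and Tdrd3, higher (1.37), formed a run on chromosome 14. Mr1 and the trafficking gene Stx6 (1.53) were both higher on chromosome 1, and Glul, the glutamine synthetase, was lower beside them (-1.79). The run of Rabgap1l and Rc3h1 (-1.01), both lower, with Klhl20 (1.46), higher, lies on the same chromosome. Of the 35 runs, 23 held genes of both directions, 8 only higher and 4 only lower genes.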

How the data were processed

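RNA from peripheral blood of 18 mice was measured on 36 arrays with 45101 probe sets. The authors deposited log2 expression summaries; GCRMA, MAS5 and affy are named in the submitters' processing notes, with no role or version. The log2 scale was read from the values. Groups came from strain and preparation labels. Probe sets whose mean over all arrays exceeded the median of such means (log2 2.89), controls left out, were tested with limma 3.58.1 in R 4.3.3 (lmFit, eBayes with intensity trend, Benjamini-Hochberg, 0.05), on the contrast of DBA/2J with the mean of 5 strain means. For differences between preparations each mouse's 2 arrays were subtracted; 17 of 18 such pairs of the same strain and number correlated above 0.1 in their deviations from group means, and the 1 exception (-0.0783) was a DBA/2J pair. Across strains the replicate numbers did not pair the samples (see the block below). A gene was its brightest probe set with 1 symbol. Named genes were the 14 largest contrasts each way among called genes with DBA/2J apart from the 15 others, up to 3 called members per list by adjusted p, every called member of the strain-allele list, and 6 genes with the smallest interaction p. Probe sets outside this rule were chosen after their values were seen, and not all are marked so where they appear. Unmarked ones include Tubb1, Cd22, Fcmr, Ebf1, Klrd1, Jchain and the uncalled B cell and class II genes. The members, lists and tests were chosen with earlier results of these data known. The fitting was tested on simulated data. The number of arrays limits precision, and mice of 1 strain measure spread within that strain only. Gene names came from the platform annotation and promoters from RefSeq GRCm38.p6. Alternatives were another filter, quantile normalization, median centring, no trend, array weights, gene means, a replicate block, whole RNA, the mean of each mouse's 2 arrays and leaving out each array, with 2 added after seeing the data.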

Additional observations from a re-analysis of the deposited data

Results flagged for a closer look

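The 126 probe sets checked were named genes, tested strain-allele, B cell and class II genes, and some sets chosen after their values were seen. For 29 of them the DBA/2J contrast differed between GLOBINclear and whole RNA by limma's test on each mouse's difference (adjusted p under 0.05). In all 29 it was larger in size in GLOBINclear RNA. Many of the 126 were chosen for their contrast in GLOBINclear RNA, so this direction is not independent of the choice. Over all tested probe sets, 27 of the 152 called differences were larger in size in whole RNA. The values below are the GLOBINclear contrast minus the whole RNA contrast, on the log2 scale. Among genes higher in DBA/2J the difference was 2.94 for Mlycd, 2.51 for Sult4a1, 2.35 for Naa16, 2.25 for Tm4sf5, 2.03 for Rubcn, 1.94 for the Xaf1 set, 1.81 for E330020D12Rik and 1.64 for the second H2-Ea set. It was 2.00, 1.51 and 1.17 for the 3 H2-D1 sets high in DBA/2J and A/J. It was 1.59 for Ahi1, 1.55 for 4930556A17Rik, 1.43 for Pla2g4a, 1.35 for Cbln3, 1.30 for Pdxdc1, 1.14 for Rassf4 and 1.04 for 1 set of Cox7a2l. Of the B cell markers, Cr2 differed by 1.25, Bcl11a by 1.03 and Ebf1 by 0.77. Among genes lower in DBA/2J the difference was -2.34 for the Fli1 set, -2.05 for Phgdh, -1.50 for Parp1, -1.39 for Rabgap1l, -1.11 for Selp, -0.99 for Trappc6a, -0.97 for Ndrg3 and -0.65 for Gsta2.

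Mlycd illustrates the levels: it averaged 8.51 in DBA/2J and 2.67 in the other strains in GLOBINclear RNA, and 5.57 in DBA/2J and 2.68 in the other strains in whole RNA. Phgdh averaged 2.88 in DBA/2J and 5.33 in the other strains in GLOBINclear RNA, and 4.30 in DBA/2J and 4.69 in the other strains in whole RNA.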

How the results depend on the processing

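Of the 126 probe sets checked, 69 were called. Of these, 46 kept the call in each of the 18 fits that left out 1 array, and none changed sign. The other 23 lost it in at least 1, of which 15 lost it only without a DBA/2J array. Other called sets given above were not checked in this way. They include Tubb1, Stx6, Glul, Klhl20, Rc3h1, Tdrd3 and the set shared by Hba-a1 and Hba-a2. Leaving out 1 array gave 132 to 342 higher and 76 to 285 lower calls, 39 to 134 and 15 to 46 for the difference between preparations, 1 to 6 called B cell markers and 1 to 4 class II genes. Array weights, whose fit stopped before convergence, gave 1122 higher and 769 lower calls, 210 and 86 for the difference, 14 B cell markers and 11 class II genes. Whole RNA gave 77 higher calls, 0 B cell markers and 1 class II gene, and Ebf1 changed sign there (-0.0335, adjusted p 0.890). Quantile normalization gave 48 higher calls for the difference and 4 class II genes. No filter and median centring each gave 3 B cell markers and 1 class II gene. A filter on the GLOBINclear mean, no trend and the mean of each mouse's 2 arrays each gave 1 class II gene, and leaving out C57Bl/6J, added after seeing the data, gave 4, with 378 higher and 231 lower calls. The causes were not tested. Without pairing the 2 arrays of a mouse, also added, the difference gave 92 higher and 30 lower calls. With replicate number as a block there were 274 higher and 184 lower calls, and 116 and 37 for the difference; of 45 pairs of same-numbered arrays of different strains 17 correlated above 0.1, and 0 of 3 DBA/2J arrays were closest to their own number, so the numbers do not pair the samples. Signal near background limits dim probe sets, and probe sequences were not analysed here.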
